A study of Mus musculus with 10 samples.

Results

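The mitochondrial ribosomal proteins were followed in liver RNA of 10 lactating mice of the QSi5 strain on diets of opposite glycaemic index, 5 on the high one (HGI) and 5 on the low one (LGI). A gene was taken when a probe set with a single gene symbol carried a name that begins with Mrpl or Mrps and a digit, and each gene was read at its brightest probe set over the 10 arrays. This gave 76 of the 18193 named genes, 47 Mrpl and 29 Mrps. Both diets held 51.4% of their carbohydrate source by weight, glucose with 15.6 MJ of gross energy per kg in HGI and a starch sold as Hi-Maze, which the labels call rich in amylase, with 16.3 MJ per kg in LGI. The mice ate these diets from pregnancy until peak lactation, when the livers were removed, and 1 array was run per mouse; the labels used here do not give the age of the mice. All HGI samples are labelled with a positive and all LGI samples with a negative energy balance, so diet and energy balance cannot be told apart.

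The mitochondrial ribosome makes the few proteins that mitochondrial DNA encodes, all of them subunits of the respiratory chain and the ATP synthase. Its RNA comes from mitochondrial DNA, but all of its proteins are encoded in the nucleus, made in the cytosol and imported. Many members have a counterpart in the bacterial ribosome, and others are found in mitochondria alone. The large subunit (Mrpl names) joins amino acids and holds the exit of the peptide at the inner membrane, and the small subunit (Mrps names) binds the mRNA and decodes it. The names do not follow the structure in full: Mrps18a and Mrps30 sit in the large subunit, and Mrps36 is now known as a subunit of the alpha-ketoglutarate dehydrogenase complex.

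The 76 genes are scattered over the genome, and what their promoters share was not used to choose them. Promoters of 67 of the 76 were in the RefSeq table (GRCm38.p6), each reaching from 250 bases before to 50 bases after a start. Factors of the ETS family, among them GABPA, bind the core CCGGAAG, and the factor NRF1 binds a palindrome of GC followed by GCATGCGC; both are known for promoters of nuclear genes of mitochondria. CCGGAAG was searched on both strands and lay in the promoter of 25 of the 67 members (37.3%), 14 Mrpl and 11 Mrps, against 12.9% of 17492 protein-coding genes and 24.3% of 70 nuclear genes of the respiratory chain. On both strands again, the whole palindrome lay in 3 promoters (4.48%), those of Mrpl9, Mrpl32 and Mrpl39. It lay in 1.47% of protein-coding genes and in 7.14% of the respiratory chain genes. Its part GCATGCGC, which overlaps the palindrome, lay in 8 (11.9%), against 3.94% of protein-coding and 14.3% of respiratory chain genes. Both NRF1 shares were thus lower in the members than in the respiratory chain genes. In 4 members, Mrpl17, Mrpl22, Mrpl33 and Mrps18b, this part was found as well as the ETS core. A match says only that these letters are present in the window.

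To show these patterns, 4 stretches are printed, each the 120 bases before a start, written 5′ to 3′ on the gene's strand with matches to the motifs in capitals. Mrpl22 (chr11:58171544-58171663, plus strand) carries both kinds, Mrpl32 (chr13:14613038-14613157, minus strand) the palindrome and 2 further parts of it, and Mrps22 (chr9:98601680-98601799, minus strand) the ETS core from base -11 to base -5. Mrpl28 (chr17:26123383-26123502, plus strand), the member with the lowest difference between the diets, carries none.
Mrpl22: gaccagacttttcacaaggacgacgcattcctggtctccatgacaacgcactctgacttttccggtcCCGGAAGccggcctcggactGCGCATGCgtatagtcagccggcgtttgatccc
Mrpl32: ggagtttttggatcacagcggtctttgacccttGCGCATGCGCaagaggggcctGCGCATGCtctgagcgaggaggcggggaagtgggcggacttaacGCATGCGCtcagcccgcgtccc
Mrps22: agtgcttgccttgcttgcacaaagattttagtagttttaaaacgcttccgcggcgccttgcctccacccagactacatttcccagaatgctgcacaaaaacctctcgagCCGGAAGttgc
Mrpl28: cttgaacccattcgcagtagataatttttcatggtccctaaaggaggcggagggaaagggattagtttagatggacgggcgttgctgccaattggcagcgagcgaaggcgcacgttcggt

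Of the 67 members, 18 (26.9%) started head to head with another protein-coding gene whose start lay within 300 bases on the opposite strand, against 6.48% of 17492 protein-coding genes. One such pair joins both subunits: Mrps11 and Mrpl46 are read away from each other from starts 42 bases apart. The 41 bases between these starts (chr7:78783090-78783130, plus strand) are given because both genes are read outwards from them, and no part is in capitals since no motif was found there.
Mrps11 and Mrpl46: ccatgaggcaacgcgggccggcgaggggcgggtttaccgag
Other partners were Twnk, the helicase of mitochondrial DNA (with Mrpl43), Sars2, the mitochondrial seryl-tRNA synthetase (with Mrps12), and Psma2, a subunit of the proteasome (with Mrpl32).

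Signal was clear for every member. All 76 stood at or above the median of all probe sets on every array, with 10-array means from 6.41 to 11.38 log2. The 11472 of 45037 probe sets that average 6 log2 or more, called bright here, are therefore the nearer background for them. Correlations between arrays lay between 0.986 and 0.996, and 7 of 7 measured hepatocyte markers stood above the median of every array. HGI 1 stood apart before any comparison: its values had an SD of 2.16 over all probe sets, against 2.26 to 2.31 on the other 9 arrays, and bright probe sets deviated there by a median of -0.26 from their 10-array means, against 0.01 to 0.07 on the others. LGI 4 correlated least with the other mice of its diet (mean r 0.988). The main counts, the medians of the gene groups and the members that follow in most detail are therefore also given without HGI 1.

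Most members had a slightly lower mean in HGI, and none passed the threshold. In whole-liver RNA, fewer cells of a type and less RNA per cell cannot be told apart. The HGI minus LGI difference was below 0 in 72 of 76 members, 45 of 47 Mrpl and 27 of 29 Mrps, with a median of -0.19 log2 and a range from -0.35 (Mrpl28) to 0.03 (Mrpl23). A difference below 0 was found at 55.8% of all probe sets and at 60.0% of the bright ones, whose median was -0.04. The largest difference, that of Mrpl28, was 1.27-fold. With limma's test and adjustment over 45037 probe sets, 0 of 76 members had an adjusted p under 0.05, where 0.0644% of all probe sets did. At an unadjusted p under 0.05, 27 of 76 (35.5%) were lower and 0 higher in HGI, where 4.78% of all probe sets and 9.25% of the bright ones were lower. The members share mice and were measured together, so these shares carry no test of their own.

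**Figure D1:**
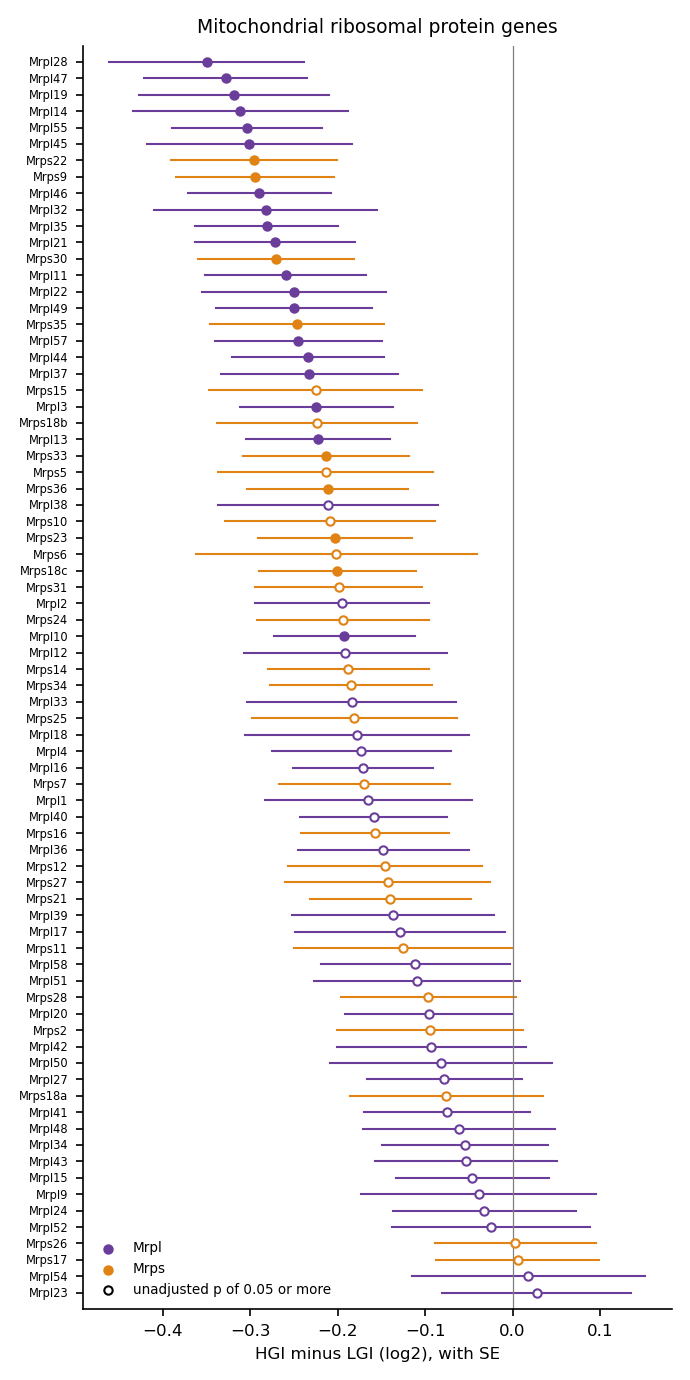
HGI minus LGI difference (x axis, log2) of each of the 76 members with its standard error from limma (bars), Mrpl in purple and Mrps in orange, filled where the unadjusted p was under 0.05. The differences run from -0.35 at Mrpl28 to 0.03 at Mrpl23, and 72 of the 76 lie left of 0.

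In the deposited values HGI 1 carried much of this size. For each array, the deviation of every member from its own 10-array mean was taken and the median over the 76 members was read. In HGI these medians were -0.35, -0.07, -0.03, 0.04 and -0.0035 log2 for mice 1 to 5, and in LGI 0.04, 0.10, 0.11, 0.14 and 0.06. HGI 1 lay far below the others, and HGI 4 reached above LGI 1, so the diets overlapped by this measure. HGI 1 held the lowest of the 10 values for 70 of 76 members, and LGI 4 the highest for 29. Without HGI 1 the median difference was -0.11, 65 of 76 members were below 0 (53.9% of all and 45.9% of bright probe sets), and 15 of 76 (19.7%) were lower at an unadjusted p under 0.05 (4.37% of all and 5.71% of bright ones). The median of bright probe sets moved up as well, from -0.04 with all arrays to 0.02 without HGI 1. The number of members past the adjusted threshold was 0 (0.0600% of all probe sets). Without HGI 1 and LGI 4 the median of the members was -0.10. With HGI 1 alone left out, the lowest of the remaining 9 values was that of HGI 2 for 27 members and of HGI 3 for 15, and that of an LGI array for 17.

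When the deposited values were quantile normalized again, which gives all arrays one distribution, HGI 1 no longer stood apart. The medians over the 76 members were then -0.07, -0.10, -0.05, -0.06 and -0.04 in HGI and 0.04, 0.05, 0.10, 0.11 and 0.06 in LGI, so that each HGI mouse lay below each LGI mouse. The median difference was -0.15, 69 of 76 members were below 0 (51.4% of all and 51.9% of bright probe sets), and 24 of 76 (31.6%) were lower at an unadjusted p under 0.05 (4.63% of all and 8.71% of bright ones). The number past the adjusted threshold was 0 here too (0.140% of all probe sets). With HGI 1 left out and the remaining arrays normalized again, the median difference was -0.13. Then 67 of 76 members were below 0 (52.4% of all and 52.2% of bright probe sets). At an unadjusted p under 0.05, 23 of 76 (30.3%) were lower (4.56% of all and 7.71% of bright ones). The difference was thus below 0 in most members under each of these settings, at a size that moved with the handling of 1 array.

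**Figure D2:**
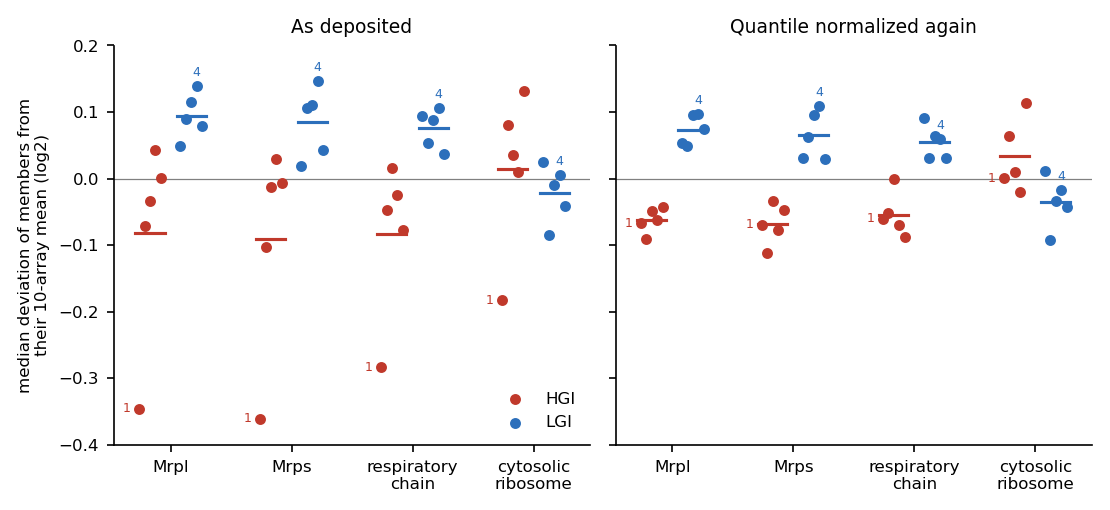
Median deviation of the genes of a set from their own 10-array means (y axis, log2) on each array, for 47 Mrpl, 29 Mrps, 82 nuclear respiratory chain and 48 cytosolic ribosomal protein genes; dots are mice 1 to 5 from left to right in each diet, lines are means, and HGI 1 and LGI 4 are numbered. HGI 1 lies at -0.35 for Mrpl and -0.36 for Mrps as deposited and at -0.07 for both after a second quantile normalization.

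In the deposited values the large and the small subunit differed from each other by less than the spread between mice. The median difference was -0.18 for the 47 Mrpl and -0.19 for the 29 Mrps, and 19 of 47 (40.4%) against 8 of 29 (27.6%) were lower at an unadjusted p under 0.05, where 4.78% of all and 9.25% of bright probe sets were. Without HGI 1 the medians were -0.09 and -0.12, with 12 (25.5%) and 3 (10.3%) such members against 4.37% of all and 5.71% of bright probe sets. By mouse, the Mrpl median deviations in HGI were -0.35, -0.07, -0.03, 0.04 and 0.0007 and those of Mrps -0.36, -0.10, -0.01, 0.03 and -0.01. In LGI they were 0.05, 0.09, 0.12, 0.14 and 0.08 for Mrpl and 0.02, 0.11, 0.11, 0.15 and 0.04 for Mrps. The Mrpl minus Mrps value of a mouse lay between -0.02 and 0.04, with a mean of 0.01 ± 0.02 (SD, n = 5) in each diet. This was less than the spread between mice of either subunit's own median, whose SD within diets was 0.11 for Mrpl and 0.12 for Mrps. A shift that both subunits share on an array drops out of the Mrpl minus Mrps value, so a smaller spread is built in. The SD within diets of that value itself was 0.02. Centring each gene on its 10-array mean also holds its mean over all arrays near 0. In HGI much of the spread of each subunit's own median came from HGI 1. Without it the SDs in HGI and LGI were 0.05 and 0.04 for Mrpl and 0.06 and 0.05 for Mrps. After a second quantile normalization of all 10 arrays they were 0.02 and 0.02 for Mrpl and 0.03 and 0.04 for Mrps. With Mrps18a and Mrps30 moved to the large subunit and Mrps36 left out, the medians were -0.18 (49 genes) and -0.19 (26 genes).

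Grouped by lists of descent, the 28 measured large subunit proteins with a bacterial counterpart had a median of -0.19 (27 below 0). The 19 listed as specific to mitochondria had a median of -0.14 (18 below 0). These 19 include Mrps18a and Mrps30, and Mrpl55 and Mrpl58 were in neither list. In the small subunit the 16 with a counterpart had a median of -0.18 (15 below 0) and the 10 listed as without one -0.20 (9 below 0). Mrps18a and Mrps18b were listed as specific to mitochondria although they are relatives of bacterial S18. Without HGI 1 these 4 medians were -0.11, -0.08, -0.10 and -0.14, in the same order, with 24, 14, 15 and 9 below 0. The lists of structural sites lay close to each other as well, with medians of -0.19 for 5 stalk proteins, -0.19 for 8 proteins around the exit of the peptide tunnel, -0.17 for 6 of the central protuberance and -0.20 for 8 of the head of the small subunit. The stalk list holds Mrpl1 beside Mrpl10, Mrpl11, Mrpl12 and Mrpl54, so it does not stand for a single site. Without HGI 1 the medians of these lists were -0.09, -0.13, -0.07 and -0.13, in the same order. No group by descent or site had a member past the adjusted threshold.

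In the large subunit the lowest differences were those of Mrpl28, Mrpl47, Mrpl19, Mrpl14, Mrpl55 and Mrpl45. Mrpl28, a counterpart of bacterial L28, read 8.38, 8.95, 8.95, 8.89 and 8.90 log2 in HGI mice 1 to 5 and 9.02, 9.18, 9.22, 9.25 and 9.16 in LGI. All HGI values lay below all LGI values, HGI 1 by the widest margin. The difference was -0.35 ± 0.11 (SE; adjusted p = 0.454) and -0.24 without HGI 1. Mrpl55 read 7.43, 7.73, 7.56, 7.74 and 7.81 in HGI and 7.94, 8.0, 7.98, 7.91 and 7.97 in LGI, again with no overlap, and its LGI values were tightly packed. It differed by -0.30 ± 0.09 (SE; adjusted p = 0.352), and by -0.25 without HGI 1.

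Mrpl47, the counterpart of L29 at the tunnel exit, read 8.08, 8.10, 8.21, 8.45 and 8.21 in HGI and 8.38, 8.60, 8.65, 8.42 and 8.65 in LGI. HGI 4 reached into the LGI range, and the other HGI mice lay below it. Its difference was -0.33 ± 0.09 (SE; adjusted p = 0.364) and, at -0.29, the lowest of all members without HGI 1. Mrpl45, which helps to hold the ribosome at the inner membrane, stood at -0.30 (adjusted p = 0.569), at -0.22 without HGI 1 and at -0.15 without HGI 1 and LGI 4. Mrpl19 and Mrpl14, both counterparts of bacterial proteins, stood at -0.32 and -0.31 (adjusted p = 0.497 and 0.575) and at -0.24 and -0.22 without HGI 1, with overlap between the diets at both.

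Mrpl46, a protein of the central protuberance, read 8.07, 8.22, 8.28, 8.30 and 8.33 in HGI and 8.47, 8.54, 8.49, 8.71 and 8.45 in LGI. The diets did not overlap, and the difference was -0.29 ± 0.08 (SE; adjusted p = 0.360), with -0.25 without HGI 1. Mrps11, which shares the promoter printed above with Mrpl46, stood at -0.13 (adjusted p = 0.885) and at -0.02 without HGI 1. Mrpl35 read 9.42, 9.73, 9.58, 9.74 and 9.73 in HGI and 9.87, 9.97, 9.88, 9.92 and 9.97 in LGI, without overlap, at -0.28 ± 0.08 (SE; adjusted p = 0.382) and at -0.23 without HGI 1. Mrpl32, which the m-AAA protease of the inner membrane cuts to its mature form and whose promoter holds the palindrome, stood at -0.28 (adjusted p = 0.655) and at -0.18 without HGI 1.

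In the small subunit Mrps22, Mrps9, Mrps30, Mrps35, Mrps15 and Mrps18b had the lowest differences. Mrps22, a protein found in mitochondria alone, read 7.83, 8.05, 7.93, 8.26 and 8.24 in HGI and 8.34, 8.46, 8.37, 8.35 and 8.28 in LGI. The highest HGI mouse lay just below the lowest LGI mouse, and the difference was -0.30 ± 0.10 (SE; adjusted p = 0.459) and -0.24 without HGI 1. Mrps9, a protein of the head, read 6.98, 7.03, 7.20, 7.30 and 7.21 in HGI and 7.24, 7.54, 7.48, 7.54 and 7.39 in LGI. HGI 4 reached above LGI 1, and the difference was -0.29 ± 0.09 (SE; adjusted p = 0.433) and -0.25 without HGI 1.

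Mrps30 read 7.79, 8.02, 8.10, 8.05 and 8.03 in HGI and 8.21, 8.30, 8.23, 8.48 and 8.13 in LGI, without overlap, at -0.27 ± 0.09 (SE; adjusted p = 0.473) and at -0.22 without HGI 1. The other low members of this subunit, Mrps35 at -0.25, Mrps15 at -0.23 and Mrps18b at -0.22, overlapped between the diets (adjusted p = 0.580, 0.726 and 0.704), and stood at -0.17, -0.15 and -0.19 without HGI 1. The 3 relatives of bacterial S18 stood at -0.08 (Mrps18a), -0.22 (Mrps18b) and -0.20 (Mrps18c), and Mrps18a at 0.01 without HGI 1. Mrps36, the dehydrogenase subunit, stood at -0.21 (adjusted p = 0.631), and Mrps12, a protein of the decoding site, at -0.15 (adjusted p = 0.829).

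The diets did not overlap at 9 of 76 members (11.8%), each time lower in HGI: Mrpl10, Mrpl13, Mrpl28, Mrpl35, Mrpl37, Mrpl46, Mrpl55, Mrps22 and Mrps30. Of all probe sets 1.20%, and of the bright ones 2.47%, were lower in HGI without overlap. Without HGI 1 the count was again 9, against 1.82% of all and 2.64% of bright probe sets. Leaving out an HGI mouse cannot lower this count, so its staying at 9 is no sign of independence from HGI 1. Mrpl10, which carries the stalk that recruits translation factors, read 8.03 in HGI 1, 8.29 to 8.34 in the other HGI mice and 8.39 to 8.52 in LGI (-0.19 ± 0.08, SE; adjusted p = 0.610; -0.14 without HGI 1). Its partner Mrpl12, the protein of the stalk itself, read 9.42 in HGI 1 and otherwise 9.999 to 10.05 in HGI and 10.05 to 10.17 in LGI. The difference of Mrpl12 was -0.19 ± 0.12 (SE; adjusted p = 0.762) and -0.07 without HGI 1, so that most of it came from 1 array.

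**Figure D3:**
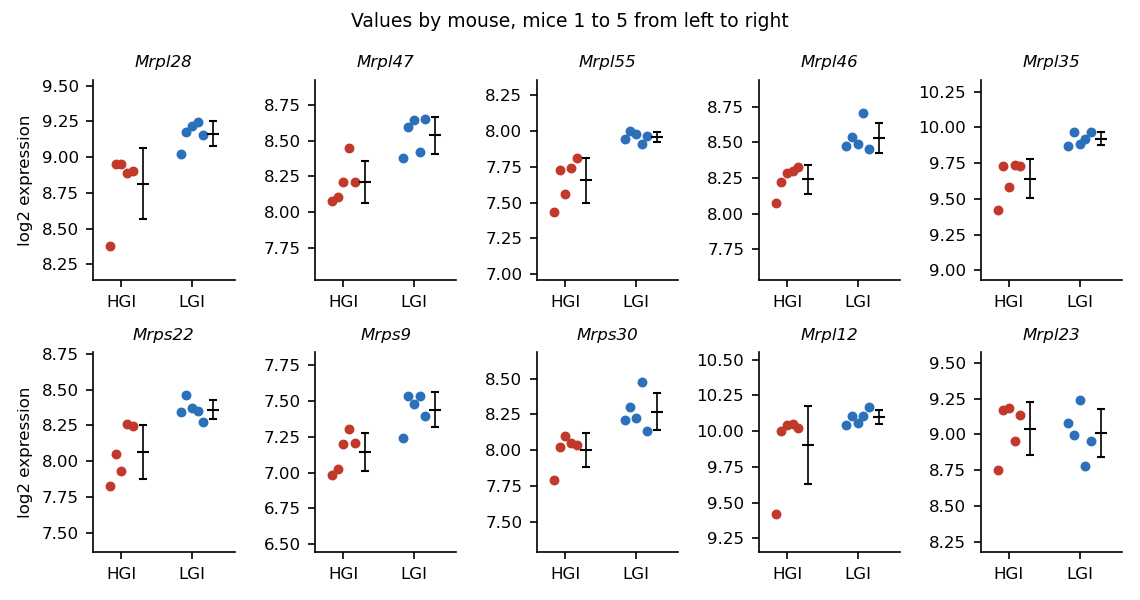
Log2 expression (y axis) of 10 members in each mouse, HGI in red and LGI in blue, mice 1 to 5 from left to right, with the mean and SD of 5 mice beside them; the y axes span the same number of log2 units. Mrpl28, Mrpl55, Mrpl46, Mrpl35, Mrps22 and Mrps30 do not overlap between the diets, and at Mrpl12 only HGI 1, at 9.42, lies away from the rest.

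At the other end 4 members had values above 0, with adjusted p from 0.978 to 0.998: Mrpl23 (0.03), Mrpl54 (0.02), Mrps17 (0.01) and Mrps26 (0.0032). Mrpl23 and Mrpl24, neighbours at the tunnel exit, stood at 0.03 and -0.03, and Mrpl52, Mrpl9 and Mrpl15 at -0.02, -0.04 and -0.05. Mrpl23 read 8.75, 9.17, 9.18, 8.95 and 9.13 in HGI and 9.08, 9.0, 9.24, 8.78 and 8.96 in LGI, with full overlap. The 95% interval of its difference reached from -0.21 to 0.26, so a change as large as that of Mrpl47 toward lower values was outside it. In the small subunit Mrps2, Mrps28 and Mrps11 were also among the highest values, at -0.09, -0.10 and -0.13. Without HGI 1 the highest differences were those of Mrpl54 (0.11) and Mrpl23 (0.10).

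**Figure D4:**
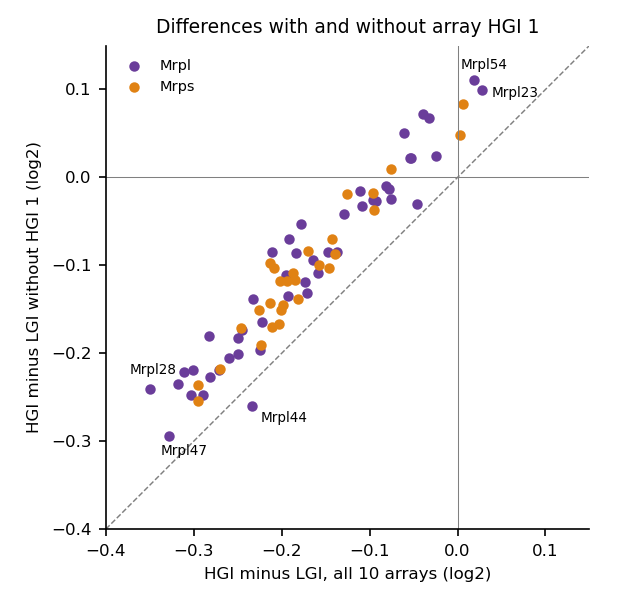
Difference of each member with all 10 arrays (x axis) against that without HGI 1 (y axis), both HGI minus LGI in log2, Mrpl in purple and Mrps in orange; the dashed line marks equal values. Mrpl44, at -0.23 and -0.26, is the point below the line, and the others lie above it.

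Mrpl44, an RNase III fold protein near the tunnel exit, was the one member further below 0 without HGI 1. It read 8.79, 8.56, 8.68, 8.63 and 8.79 in HGI and 8.70, 9.04, 8.93, 9.03 and 8.91 in LGI. HGI 1 was among the higher HGI mice here, and the difference was -0.23 ± 0.09 (SE; adjusted p = 0.537) with it and -0.26 without it. It was under an unadjusted p of 0.05 as deposited and not after a second quantile normalization. In all, 14 members were lower at an unadjusted p under 0.05 as deposited, without HGI 1 and after a second quantile normalization: Mrpl3, Mrpl11, Mrpl13, Mrpl19, Mrpl21, Mrpl28, Mrpl35, Mrpl46, Mrpl47, Mrpl49, Mrpl55, Mrps9, Mrps22 and Mrps30. The rule of all these settings was met by 3.03% of all and 5.08% of bright probe sets. All of these members but Mrpl3 also met it whichever single array was left out, as did 2.15% of all and 4.79% of bright probe sets.

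The 76 members had 156 probe sets in all, and 42 members had more than 1. At the 80 probe sets not used above, 52 values were below 0, against 55.8% of all probe sets, with a median of -0.05. An unadjusted p under 0.05 was found at 12 of the 80, against 7.54% of all probe sets in either direction. Many of the 80 are dim, and of the 29 that were bright, 25 were below 0, against 60.0% of all bright probe sets. Mrpl11, at the base of the stalk, stood at -0.26, -0.18 and -0.30 at its 3 bright probe sets and at 0.08 at a dim one. Mrpl28 stood at -0.35, -0.26 and -0.08 at its 3, all of similar brightness. Mrps9 was the one member whose probe sets lay more than 0.5 apart, at -0.29, -0.32 and -0.30 at 3 and at 0.24 at the dimmest one (adjusted p = 0.7005). Of the probe sets used, 9 carry a suffix by which Affymetrix marks probes that other transcripts may share, those of Mrpl9, Mrpl11, Mrpl15, Mrpl19, Mrpl37, Mrpl38, Mrps6, Mrps12 and Mrps24. Pseudogenes of Mrpl23, Mrpl27, Mrpl48 and Mrps36 are annotated, and whether they add to those signals was not tested.

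The differences of members with and without a promoter motif were set side by side and not tested. The median was -0.15 for the 25 with CCGGAAG and -0.19 for the 42 without it, and -0.09 against -0.12 without HGI 1. For the part GCATGCGC it was -0.19 in the 8 with it and -0.19 in the rest, and -0.11 and -0.11 without HGI 1.

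The rest of the mitochondrial translation system lay in the same direction. Mitoribosomal proteins that carry other names had a median of -0.22 over the 4 genes measured under such names. These were Gadd45gip1 (-0.29), Ptcd3 (-0.23), Chchd1 (-0.21) and Dap3 (-0.17), the GTP-binding protein of the small subunit head. The 29 genes of ribosome assembly and ribosomal RNA modification had a median of -0.14 with 28 below 0, led by Eral1, a GTPase that binds the small subunit's RNA (-0.33, adjusted p = 0.568), and Spg7, a subunit of the m-AAA protease (-0.25, adjusted p = 0.533). The 13 translation factors had a median of -0.16 with 12 below 0, among them Mtif3, an initiation factor (-0.27, adjusted p = 0.589), and Slirp, which binds mitochondrial mRNAs (-0.27, adjusted p = 0.663). Without HGI 1 these 3 medians were -0.15, -0.08 and -0.11, with 4, 26 and 8 genes below 0. In that setting 53.9% of all and 45.9% of bright probe sets were below 0, so the 8 of 13 translation factors lay nearer to these shares.

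Of 19 genes of mitochondrial aminoacyl-tRNA synthesis 18 were below 0, with a median of -0.17 and -0.09 without HGI 1. Gatb, a subunit of the enzyme that makes glutaminyl-tRNA in mitochondria, had the lowest difference of the whole system. It read 6.81, 7.0, 7.25, 7.02 and 6.99 log2 in HGI and 7.36, 7.39, 7.44, 7.55 and 7.34 in LGI, without overlap. This was a difference of -0.40 ± 0.09 (SE; adjusted p = 0.178) and -0.35 without HGI 1. Nars2, the asparaginyl-tRNA synthetase, stood at -0.28 (adjusted p = 0.464) and at -0.24 without HGI 1. All 10 genes of mitochondrial DNA transcription and replication were below 0, with a median of -0.13 and -0.08 without HGI 1, where 8 were below 0. Tefm, the elongation factor of mitochondrial transcription, stood at -0.25 (adjusted p = 0.624) and Twnk at -0.20 (adjusted p = 0.651), and at -0.23 and -0.14 without HGI 1. The number past the adjusted threshold was 0 in each of these lists, and 0 genes of them were higher at an unadjusted p under 0.05 with all 10 arrays.

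Regulators of mitochondrial biogenesis had no common sign: 5 of 10 were below 0, with a median of 0.03, and 0 had an unadjusted p under 0.05. Without HGI 1, 2 of 10 were below 0 (53.9% of all and 45.9% of bright probe sets). In that setting 2 were higher at an unadjusted p under 0.05 (4.43% of all and 7.93% of bright probe sets). Esrra, a nuclear receptor that acts on genes of oxidative metabolism, stood at -0.21 (adjusted p = 0.701) and Myc at 0.39 (adjusted p = 0.746), the latter at 0.58 without HGI 1. Gabpa stood at 0.05, Nrf1 at -0.0007 and the coactivator Ppargc1a at -0.19, with an SD of 0.69 in HGI and 0.50 in LGI.

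**Figure D5:**
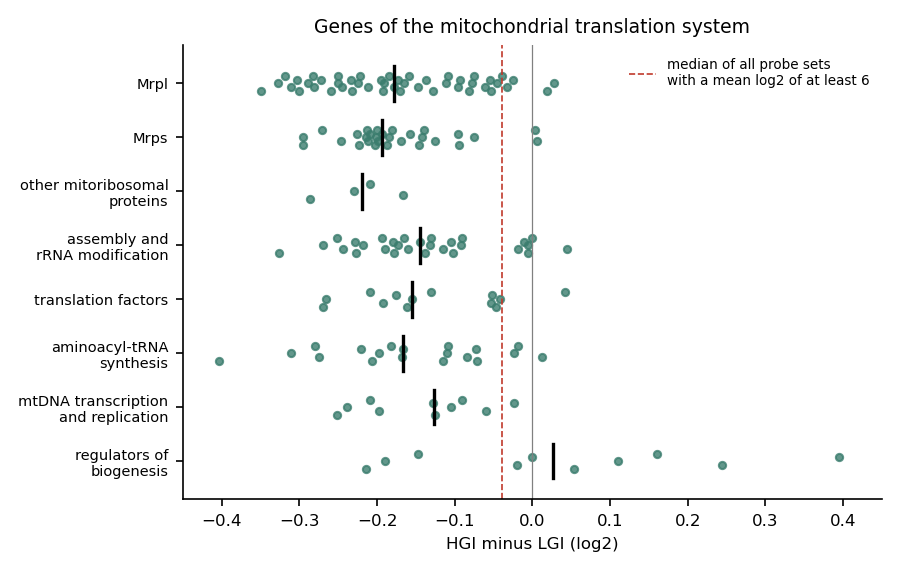
HGI minus LGI difference (x axis, log2) of each gene in the Mrpl and Mrps groups and in 6 lists of the mitochondrial translation system, with the median of each list as a black bar. The medians of the first 7 lists lie between -0.22 and -0.13, and that of the regulators at 0.03; the dashed line marks -0.04, the median of bright probe sets.

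Set beside 2 related groups, the median of the members lay near that of the respiratory chain and away from that of the ribosome of the cytosol. The 82 nuclear genes of the respiratory chain and ATP synthase had a median of -0.14 with 75 below 0 (55.8% of all and 60.0% of bright probe sets). Of them 24 (29.3%) were lower at an unadjusted p under 0.05 (4.78% of all and 9.25% of bright probe sets). The 48 cytosolic ribosomal proteins had a median of 0.03 with 15 below 0, and 0 were lower at an unadjusted p under 0.05, while 4 (8.33%) were higher (2.76% of all and 3.97% of bright probe sets). Without HGI 1 the medians were -0.09 and 0.08, and 13 (15.9%) and 1 were lower (4.37% of all and 5.71% of bright probe sets). In the same setting 9 cytosolic ribosomal proteins (18.8%) were higher (4.43% of all and 7.93% of bright probe sets). The differences between these groups were not tested. The array medians of the respiratory chain were -0.28, -0.05, 0.02, -0.02 and -0.08 in HGI and 0.09, 0.05, 0.09, 0.11 and 0.04 in LGI, with HGI 1 lowest here too.

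Markers of other cell types did not all lie on one side, where 55.8% of all and 60.0% of bright probe sets were below 0. All 11 markers of Kupffer cells and macrophages were above 0 (median 0.28, and 0.26 without HGI 1; mean level per array 7.42 to 8.24 log2 in HGI and 7.13 to 7.87 in LGI), and so were all 10 of liver endothelial cells (median 0.20, and 0.20 without HGI 1; 6.02 to 6.65 and 5.98 to 6.29). Of 5 erythroid markers 4 were above 0 (median 0.48, and 0.54 without HGI 1; 5.36 to 6.21 and 4.65 to 5.41), with Epb42 and Hemgn below the median of every array. The largest of these differences were those of Slc4a1 (2.25, adjusted p = 0.0625) and Alas2 (1.34, adjusted p = 0.262), and Ank1 stood at -0.07. All 3 B cell markers were above 0 as well (median 0.13; 3.99 to 4.50 and 3.85 to 4.13), but only 1 stood above the median of every array and Ms4a1 was below it throughout. Neutrophil markers lay lower in HGI at 3 of 4 (median -0.16, and -0.22 without HGI 1; 4.33 to 5.59 and 4.50 to 7.0). The medians of the remaining lists were -0.04 for 7 stellate cell and fibroblast markers (4 below 0; 0.03 without HGI 1), -0.03 for 3 T cell, -0.04 for 3 adipocyte and 0.02 for 4 bile duct cell markers, and the 3 adipocyte markers were below the median of every array. The 7 hepatocyte markers had a median of 0.03. Of all these markers 0 passed the adjusted threshold, and their part in the difference of the members was not tested.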

How the data were processed

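Liver RNA of 10 lactating mice was hybridised to 1 Affymetrix array each, and the labels give 1 numbered mouse per sample. The authors deposited RMA values on the log2 scale, made in R 2.6.1 per the submitters' processing notes; RMA subtracts background, quantile normalizes and summarises probes. Of 45101 probe sets, 64 controls were left out, and 34945 of the rest carried a single gene symbol. HGI was compared with LGI by limma 3.58.1 (R 4.3.3; lmFit and eBayes, two-sided) over 45037 probe sets with Benjamini-Hochberg adjustment, and all adjusted p-values come from that fit; the script was tested on simulated data. Reference promoters and gene types came from RefSeq tables of GRCm38.p6. The members and gene lists were chosen with earlier results of these data known. Named were, by rule, the 6 highest and the 6 lowest members of each subunit, those at an unadjusted p under 0.05, those with probe sets over 0.5 apart, the most variable ones, some for their role, and the 2 genes of smallest p of each related list; Dap3, Ptcd3, Gabpa, Nrf1, Ppargc1a and the head-to-head partners were added after their values were seen. Alternatives were filters, normalizations, fits, other probe sets, left-out arrays and a replicate block; bright median centring, and a second quantile normalization with HGI 1 left out, were added after seeing the data. Array number limits the precision.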

Additional observations from a re-analysis of the deposited data

Results flagged for a closer look

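In 92 groups of 5 mice, those of the 44 named members and of the medians of both subunits in each diet, a sample was marked when its gap to the nearest other exceeded 0.71 of the group's range (Dixon's test), which chance does in about 1 of 20 groups. This held in 8 groups, 7 of them for HGI 1 as the lowest HGI mouse. All groups hold the same mice, so they are not independent and their count carries no test. HGI 1 read 8.38 at Mrpl28, where the other HGI mice lay between 8.89 and 8.95, and 9.42 at Mrpl12, where the others reached at most 10.05. At Mrpl10 it read 8.03 (others 8.29 to 8.34), at Mrpl37 7.22 (others 7.63 to 7.74) and at Mrps30 7.79 (others 8.02 to 8.10). It read 8.89 at Mrpl24 (others 9.30 to 9.46) and 6.18 at Mrpl54 (others 6.59 to 6.74). LGI 4 was the highest LGI mouse at Mrps28, with 8.91 against 8.65 to 8.69 in the others.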

How the results depend on the processing

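The number of members past the adjusted threshold was 0 under every alternative run, and the lowest adjusted p of a named member under any of them was 0.202. Leaving out 1 array gave 15 to 32 members at an unadjusted p under 0.05 (15 without HGI 1) and a large minus small subunit median from -0.014 (without LGI 4) to 0.023 (without HGI 1). Without HGI 1 and LGI 4 together these were 14, of which 13 were lower in HGI, and -0.0071. The replicate numbers do not pair the mice (correlations of same-numbered deviations from -0.05 to 0.07), and the fit with the replicate block gave 28 members at an unadjusted p under 0.05, 72 below 0 and 0 past the threshold. Of 1012 values of 44 named members under 23 alternatives each, 53 changed sign, and the cause was not tested. A second quantile normalization gave 0.0092 for Mrpl15, 0.0066 for Mrpl24 and 0.026 for Mrpl52. Array weights gave 0.041 for Mrpl9 and 0.015 for Mrpl24. The mean of all probe sets gave -0.060 for Mrpl54. The dimmest probe set of a gene gave 0.12 for Mrpl47, 0.24 for Mrps9, 0.17 for Mrpl21, 0.080 for Mrpl11, 0.0011 for Mrpl57, 0.033 for Mrpl44, 0.11 for Mrps15, 0.10 for Mrpl3, 0.086 for Mrps2, 0.052 for Mrpl9, 0.052 for Mrpl52 and -0.14 for Mrpl54. Leaving out HGI 1 and LGI 4 together gave 0.029 for Mrps28, 0.014 for Mrps2, 0.14 for Mrpl9, 0.043 for Mrpl24 and 0.062 for Mrpl52. Centring on bright probe sets gave 0.0023 for Mrpl24 and 0.0099 for Mrpl52. A second quantile normalization with HGI 1 left out gave 0.043 for Mrpl9, 0.034 for Mrpl24 and 0.0067 for Mrpl52. Leaving out 1 array at a time, the members that changed sign ranged from -0.13 to 0.0098 for Mrps18a, -0.12 to 0.073 for Mrpl9, -0.077 to 0.067 for Mrpl24, -0.10 to 0.024 for Mrpl52, -0.030 to 0.099 for Mrpl23, -0.034 to 0.083 for Mrps17, -0.042 to 0.12 for Mrpl54 and -0.064 to 0.048 for Mrps26.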

Other observations

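The genes that start head to head with a member were also read. Of the 16 partners that are no members, 13 were below 0, as were 55.8% of all and 60.0% of bright probe sets. Without HGI 1 these were 12, against 53.9% and 45.9%. Their median was -0.10 against -0.19 for their members, and 0 passed the adjusted threshold. Klc4, a kinesin light chain that starts 141 bases from Mrpl2, had the lowest value (-0.31, adjusted p = 0.346), with Mrpl2 itself at -0.19. Psma2 stood at -0.21 beside Mrpl32 at -0.28, and Sars2 at 0.01 beside Mrps12 at -0.15. Tcp1, a chaperonin subunit, stood at 0.06 beside Mrpl18 at -0.18. Fau, which encodes a protein of the cytosolic ribosome, stood at -0.01 beside Mrpl49 at -0.25.

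ND5, a subunit of complex I that mitochondrial DNA encodes and the mitochondrial ribosome makes, was read at a single probe set and chosen after its value was seen. It stood at 12.62, 12.94, 13.09, 13.27 and 12.67 log2 in HGI and at 12.89, 12.87, 12.91, 12.63 and 12.82 in LGI. The diets overlapped, with a difference of 0.09 ± 0.12 (SE; adjusted p = 0.921).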
